A study of Mus musculus with 9 samples.

Results

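Regulatory T cells from mice in which Sirt1 was targeted by a Foxp3 Cre recombinase (Foxp3-cre) were compared directly with regulatory T cells from mice in which Sirt1 was targeted by a CD4 Cre recombinase (CD4-cre). Each group has 3 arrays, so the comparison uses 6 of the 9 arrays of the study, chosen by the genotype in the labels, and the 3 wild type arrays stayed outside the fit. All mice were of the C57BL6 strain, and the cells of every group were taken by magnetic separation as CD4+CD25+ cells. Both knockout groups are conditional Sirt1 knockouts, so targeting of Sirt1 is shared and the Cre differs. The sources used here do not give the age of the mice, the part of Sirt1 that is removed, the Cre lines or whether the wild type mice carried a Cre.

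Regulatory T cells (Tregs) restrain other immune cells, and the transcription factor Foxp3 sets and holds their identity. Sirt1 is an NAD-dependent deacetylase, and Foxp3, the NF-kB subunit p65, FOXO factors and p53 are among its known substrates. A Cre under the CD4 promoter is active from the CD4+CD8+ thymocyte stage and so reaches all conventional T cells as well as Tregs, whereas a Cre under the control of Foxp3 acts in cells that express Foxp3. Foxp3 Cre lines in common use carry the recombinase in or next to the Foxp3 gene itself or on a transgene that contains it. The comparison therefore asks what differs in cells of one surface phenotype when the same gene is targeted by the narrower or the broader driver.

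Signals are RMA values on a log2 scale, so a difference of 1 is a 2-fold difference. Each difference is the mean of Foxp3-cre minus the mean of CD4-cre, with its standard error (SE), and values per array are listed in the order of replicates 1, 2 and 3. The 6 arrays correlated with each other at 0.9921 to 0.9976 over all probe sets, and within a group at 0.9939 or more. The arrays of both groups overlapped in the 5' minus 3' signal of beta-actin (-0.68 to -0.48) and of Gapdh (-0.31 to -0.07). Foxp3-cre replicate 1 differed most from the other arrays of its group, with a median absolute gap of 0.107 against 0.057 to 0.081 for the other 5 arrays. Wild type replicate 2 stood apart from the rest, and wild type values are therefore given as description only. T cell markers, which Tregs share with other T cells, were bright on all 6 arrays. The mean signal of 9 tested markers lay between 10.58 and 10.72, and those markers had a median difference of -0.07.

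Of 7436 genes tested, 55 (0.74%) passed the threshold, a limma adjusted p below 0.05. They were 16 genes (0.215%) that were higher in Foxp3-cre and 39 genes (0.524%) that were lower. Foxp3 stood far from the rest, and Il1r2 was the other gene with a difference over 2-fold. The median fold among the 55 was 1.42, and for 48 of them the adjusted p lay above 0.03. The count rests on all 6 arrays: 1 gene, Foxp3, passed when CD4-cre replicate 1, 2 or 3 or Foxp3-cre replicate 3 was left out, 9 passed without Foxp3-cre replicate 2, and 181 passed without Foxp3-cre replicate 1. When 1 fit over all 9 arrays estimated the spread, Foxp3 again was the single gene that passed. At an unadjusted p below 0.05 there were 1726 genes (23.2%), and the median difference over all tested genes was -0.02, with quartiles of -0.11 and 0.08.

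**Figure D1:**
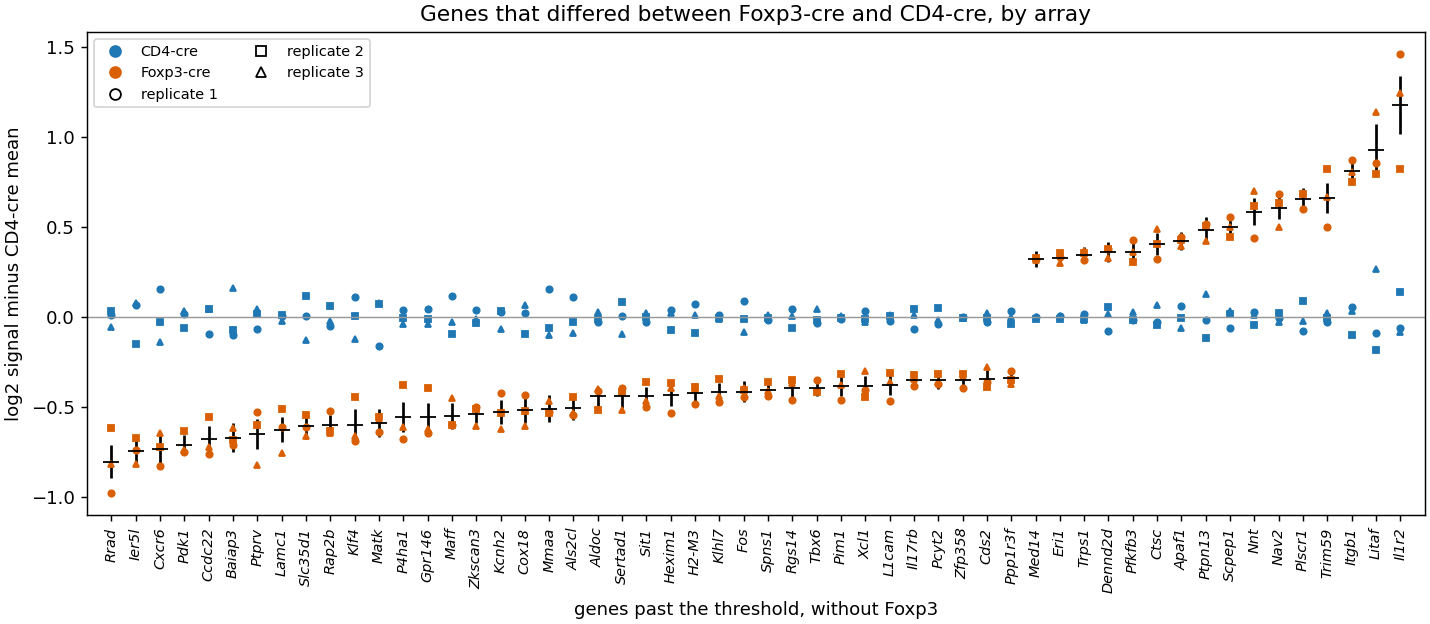
Each of the 54 genes other than Foxp3 that passed the threshold, with the log2 signal of each array minus the CD4-cre mean on the vertical axis (blue CD4-cre, orange Foxp3-cre; circle, square and triangle mark replicates 1, 2 and 3; the black cross is the mean difference with its SE). The 3 Foxp3-cre arrays of every gene lie on one side of the 3 CD4-cre arrays, and Il1r2 at 1.18 and Rrad at -0.80 have the largest differences in either direction.

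Foxp3 itself was nearly lost from the Foxp3-cre arrays. Its single probe set read 9.68, 9.69 and 9.62 in CD4-cre against 2.67, 3.38 and 2.83 in Foxp3-cre. In wild type it read 9.16, 9.68 and 9.34, so CD4-cre and wild type lay together and Foxp3-cre lay apart. The difference was -6.70 (SE 0.17, limma adjusted p = 2.74e-05). On the Foxp3-cre arrays 11.3 to 23.9% of all probe sets read as low or lower, so the size of the difference is limited by the floor of the array. Foxp3 passed the filter on low signals through the CD4-cre group alone. It passed the threshold in each of the 6 fits that left out 1 array. Where the probes of this set lie in the gene, and relative to any Cre insertion, was not tested. Less RNA per cell and fewer cells that express a gene cannot be told apart in RNA from pooled cells.

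The genes on either side of Foxp3 on the X chromosome were also lower, by far less. Ccdc22, which encodes a subunit of a complex for endosomal sorting, lies next to Foxp3 on the opposite strand, and the RefSeq spans of the genes overlap. It read 6.78, 6.92 and 6.92 in CD4-cre against 6.11, 6.32 and 6.15 in Foxp3-cre, a fall of 0.68 on the log2 scale (SE 0.07, limma adjusted p = 0.0351). Ppp1r3f, a regulatory subunit of protein phosphatase 1, is the nearest tested gene on the other side and does not overlap Foxp3. It read 7.32, 7.25 and 7.28 against 6.99, 6.93 and 6.91, a difference of -0.34 (SE 0.05, adjusted p = 0.0437). For both genes the 3 wild type arrays read above all Foxp3-cre arrays. None of 7 tested genes farther out passed in limma, with differences from -0.19 to 0.30; the smallest adjusted p among them was 0.0553, that of Plp2, which read higher in Foxp3-cre. The X chromosome held 5 of the genes that passed among 198 tested (2.53%, against 0.74% of all tested genes): Foxp3, Ccdc22, Ppp1r3f, Med14 and L1cam. Among the 10 tested genes around Sirt1, differences ran from -0.27 to 0.53 and 0 passed, and among the 10 around Cd4 they ran from -0.32 to 0.83 and 0 passed in limma.

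**Figure D2:**
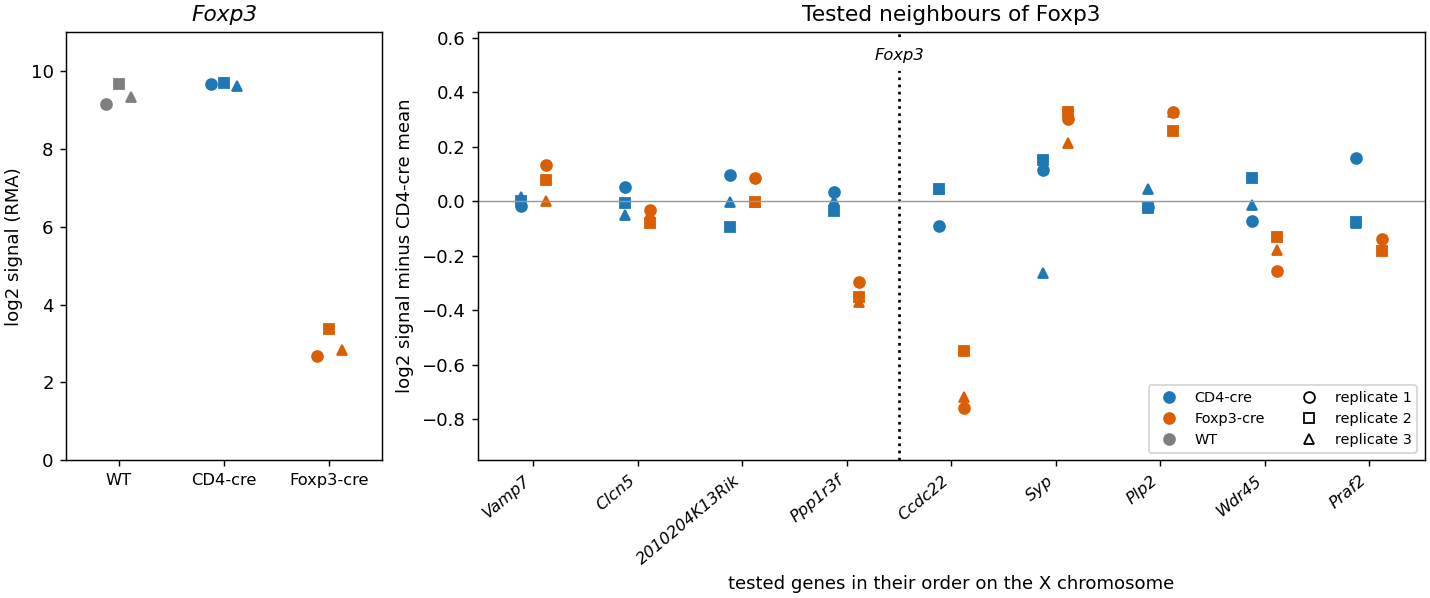
Left, the log2 signal of Foxp3 on each array of wild type (WT), CD4-cre and Foxp3-cre; right, the log2 signal minus the CD4-cre mean for the tested genes nearest to Foxp3, in their order on the X chromosome with the place of Foxp3 dotted (blue CD4-cre, orange Foxp3-cre; symbols mark replicates). The Foxp3-cre arrays read 2.67 to 3.38 for Foxp3, and beside it Ppp1r3f and Ccdc22 lie below 0 on all 3 Foxp3-cre arrays, at mean differences of -0.34 and -0.68.

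Sirt1 did not separate the knockouts. It read 7.69, 7.59 and 7.59 in CD4-cre against 7.66, 7.54 and 7.47 in Foxp3-cre, a difference of -0.07 (SE 0.07, limma adjusted p = 0.563). The wild type arrays read 7.91, 6.77 and 7.90. All knockout arrays lay above wild type replicate 2, the array that stood apart, and below both other wild type arrays. A probe set outside the deleted part would check nothing, and the genotypes are those of the labels. Among 11 tested sirtuins and NAD enzymes 1 passed, against 0.74% of all tested genes, with a list median of -0.03. That gene was Nnt, the mitochondrial transhydrogenase that makes NADPH at the expense of NADH. It read 7.21, 7.14 and 7.20 in CD4-cre against 7.63, 7.80 and 7.88 in Foxp3-cre, a rise of 0.59 (SE 0.07, limma adjusted p = 0.0380). Nnt is known to carry a deletion in one substrain of C57BL/6, and the labels name no substrain. Of 16 tested histone deacetylases and acetyltransferases 0 passed in limma, with a median of -0.05; Kat6a stood at -0.21 and Hdac2 at 0.20.

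The rest of the Treg signature lay close to level. Of its other 37 tested members 0 passed in limma and 11 had an unadjusted p below 0.05. They stood higher in Foxp3-cre in 19 cases and lower in 18, with a median of 0.03 and quartiles of -0.10 and 0.14. The groups did not overlap upward for 6 members and downward for another 6 (16.2% each), against 10.8% and 18.8% of all tested genes. Il2ra, the CD25 chain of the IL-2 receptor, read 8.42, 8.52 and 8.46 in CD4-cre against 8.79, 8.50 and 8.51 in Foxp3-cre, so the groups overlapped. Ctla4, an inhibitory receptor, read 10.32, 10.39 and 10.37 against 10.15, 10.36 and 10.38, a difference of -0.06 (SE 0.07, limma adjusted p = 0.639). Tnfrsf18, the TNF receptor family member GITR, stood at -0.21 (adjusted p = 0.236). The members farthest from 0 were Fgl2, a secreted suppressive mediator, at 0.50 (SE 0.11, adjusted p = 0.0837), and the orphan receptor Gpr83, at -0.41 (SE 0.07, adjusted p = 0.0636). Gpr83 read 9.50, 9.46 and 9.33 against 8.98, 9.13 and 8.94, with no overlap; it and Fgl2 were picked after their values were seen. The separation was by CD4 and CD25, so Cd4 and Il2ra bear on the gate as well as on the cells; Cd4 stood at 0.22 (SE 0.07, adjusted p = 0.153).

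Receptors and adhesion molecules that mark activated or migrating T cells changed in both directions. Il1r2, a decoy receptor that captures IL-1 and is found on activated Tregs, read 6.06, 6.25 and 6.03 in CD4-cre against 7.58, 6.94 and 7.36 in Foxp3-cre. Its rise of 1.18 (SE 0.16, limma adjusted p = 0.0425) was the largest among the genes past the threshold, and every Foxp3-cre array lay above every CD4-cre array. Which cells gave the Il1r2 signal was not tested. Itgb1, the beta1 integrin chain that pairs with several alpha chains for binding to matrix and VCAM1, read 7.76, 7.61 and 7.74 against 8.57, 8.46 and 8.51. Its rise was 0.81 (SE 0.06, adjusted p = 0.0149), and a further probe set of Itgb1 gave 0.77. Cxcr6, the receptor for the chemokine CXCL16, read 8.85, 8.67 and 8.56 against 7.87, 7.97 and 8.05, a fall of 0.73 (SE 0.09, adjusted p = 0.0380). A further probe set of Cxcr6 gave -0.69. The wild type arrays read 9.70, 9.18 and 9.32 for Cxcr6, above both knockouts. Itgb1 and Cxcr6 were the members that passed among 23 tested activation and homing genes, whose median was 0.00. Among all tested genes 0.74% passed.

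Smaller falls were seen for other molecules of the T cell surface and of signalling below it. Xcl1, a chemokine of activated T and NK cells, read 7.34, 7.30 and 7.29 in CD4-cre against 6.91, 6.87 and 7.01 in Foxp3-cre, a fall of 0.38 (SE 0.06, limma adjusted p = 0.0474). Sit1, an adaptor that dampens T cell receptor signals, fell by 0.44, and Matk, a kinase that inhibits Src family kinases, fell by 0.59. H2-M3, which presents formylated peptides, fell by 0.42, and Il17rb, a receptor chain for IL-25, fell by 0.35. Pim1, a survival kinase induced by cytokines through STAT5, read 10.61, 10.61 and 10.62 against 10.16, 10.30 and 10.24, a fall of 0.38. It was the 1 member that passed among 23 tested genes of the IL-2 receptor, JAK and STAT list, against 0.74% of all tested genes. The list had a median of -0.11, and 8 members had all Foxp3-cre arrays below all CD4-cre arrays (34.8%, against 18.8% of all tested genes). Of 20 tested T cell receptor genes 0 passed in limma, with a median of -0.07; Cd27, a costimulatory receptor, stood at -0.28 (adjusted p = 0.0932).

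Rrad had the largest fall after Foxp3 among the genes past the threshold. Rrad, a GTPase of the RGK group that binds calcium channel subunits, read 8.34, 8.37 and 8.28 in CD4-cre against 7.36, 7.72 and 7.52 in Foxp3-cre, a fall of 0.80 (SE 0.09). Rap2b, a Ras-related GTPase, fell by 0.60, but other probe sets of Rap2b read -0.07 and 0.05, so its fall rests on 1 of its probe sets. Rgs14, which speeds GTP hydrolysis by G alpha subunits, fell by 0.39. Further falls with no overlap were those of Baiap3, an exocytosis factor, by 0.67, of Lamc1, the laminin gamma1 chain, by 0.62, of Ptprv, a receptor-type phosphatase, by 0.65, and of Slc35d1, a carrier of nucleotide sugars, by 0.60. Among the 17 genes past the threshold that have another probe set above the filter, 18 of those 20 probe sets had the same sign and 14 had at least 50% of the difference.

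Genes of rapid stimulus response stood lower in Foxp3-cre. Of 26 tested immediate early genes, 20 had a difference below 0 and the median was -0.22. In 15 members (57.7%) all Foxp3-cre arrays lay below all CD4-cre arrays, against 18.8% of all tested genes. The threshold was passed by 2 members, Fos and Klf4, and by 0.74% of all tested genes. Fos, a subunit of the AP-1 transcription factor, read 12.59, 12.49 and 12.42 in CD4-cre against 12.05, 12.09 and 12.10 in Foxp3-cre, a fall of 0.41 (SE 0.06, limma adjusted p = 0.0437). Klf4, a zinc finger factor that restrains T cell division and is a FOXO target, read 8.76, 8.66 and 8.53 against 7.96, 8.21 and 7.99, a fall of 0.60 (SE 0.09, adjusted p = 0.0489). Members that did not pass included Fosb at -0.75 (SE 0.12, adjusted p = 0.0547) and Nr4a1, an orphan nuclear receptor induced by T cell receptor signals, at -0.64 (SE 0.10, adjusted p = 0.0553). Egr2, an inducible zinc finger factor, stood at 0.23, in the other direction, and its groups overlapped. These members were chosen after their values were seen. Foxp3-cre replicate 1 was the lowest of the 6 arrays for 19 of the 26 members, yet the list's median stayed at -0.18 without that array. Outside that list, Maff, a small Maf factor, fell by 0.55, and Sertad1, a cofactor of cell cycle transcription, fell by 0.44. Ier5l, a homologue of an immediate early gene, read 5.58, 5.37 and 5.59 against 4.78, 4.84 and 4.70, at -0.74; its Foxp3-cre mean lay under the filter on low signals, so it was tested through its CD4-cre level alone. The labels do not say how the cells were held before lysis.

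The NF-kB and FOXO lists, 2 groups tied to known substrates of Sirt1, also leaned downward. Sirt1 was targeted in both knockouts, and a link of these lists to Sirt1 was not tested. Foxp3-cre replicate 1 was the lowest of the 6 arrays for 16 of 26 NF-kB members and 13 of 20 FOXO members. Without that array the medians were -0.13 and -0.14. Of 26 tested NF-kB subunits, inhibitors and targets 23 had a difference below 0, the median was -0.15, and 12 (46.2%) had all Foxp3-cre arrays below all CD4-cre arrays, against 18.8% of all tested genes. None of them passed in limma; 2 of the lowest were Ccl3, at -0.54, and Ccl4, at -0.44, chemokines of activated lymphocytes and macrophages. Rela, the p65 subunit, read 9.55, 9.57 and 9.53 in CD4-cre against 9.26, 9.46 and 9.30 in Foxp3-cre, at -0.21 (SE 0.06, adjusted p = 0.134); it is named here after its values were seen. Of 20 tested FOXO factors and targets 15 had a difference below 0, and the median was -0.15, with 9 members (45%, against the same 18.8%) below without overlap. The 1 member that passed was Klf4, which was lower, where 0.74% of all tested genes passed. With no filter the median over 24 members was -0.10. Foxo1 itself read 9.46, 9.39 and 9.40 against 8.95, 9.10 and 8.87, a difference of -0.44 (SE 0.07, adjusted p = 0.0553). Its other probe sets above the filter gave -0.17 and -0.07, both with overlap. Of 25 tested p53 genes 7 stood higher and 18 lower, with a median of -0.07. The 1 that passed (against the same 0.74%) was Apaf1, the scaffold of the apoptosome, at 0.42 (SE 0.05, limma adjusted p = 0.0380).

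**Figure D3:**
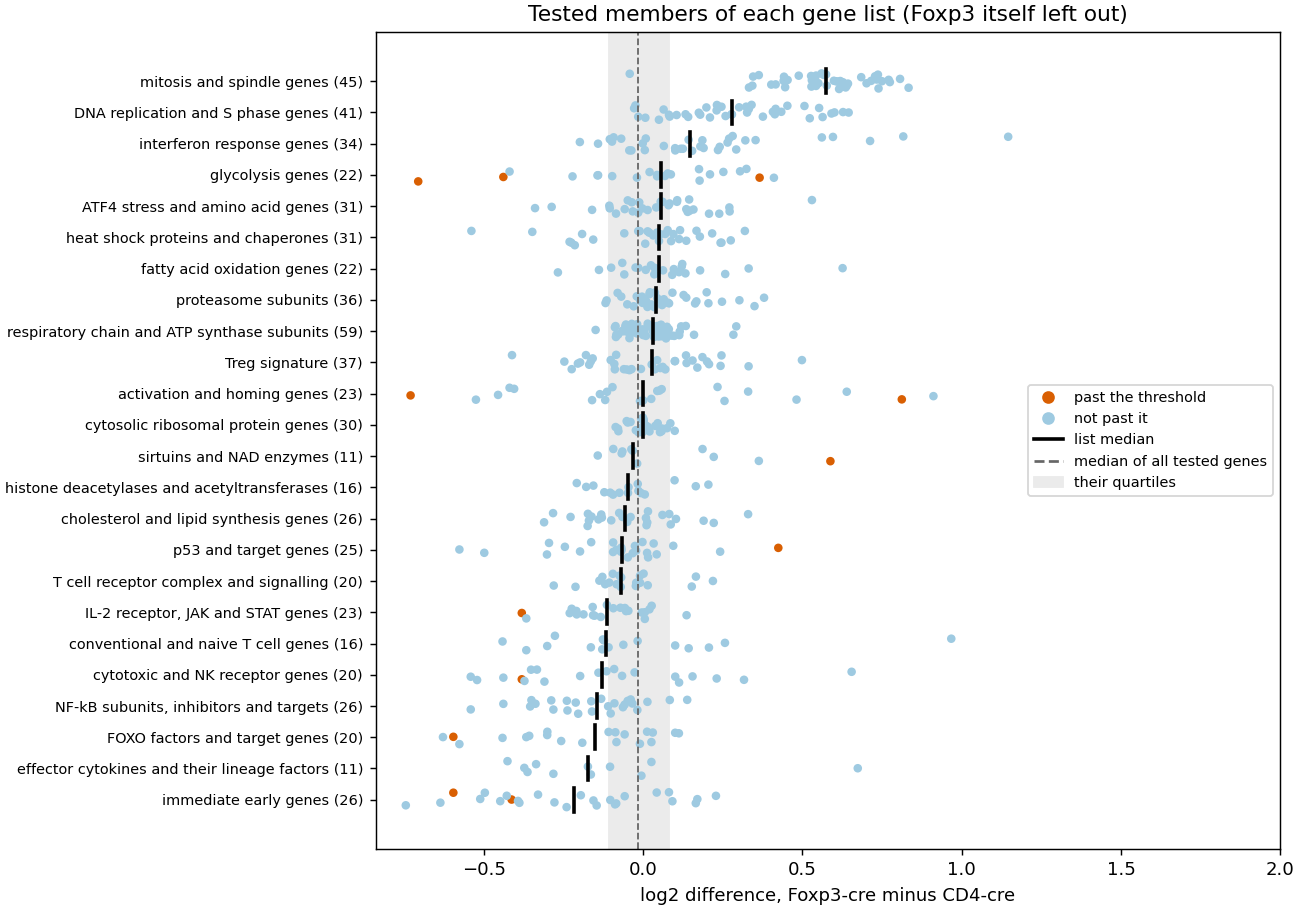
Difference in log2 signal, Foxp3-cre minus CD4-cre, of every tested member of 24 gene lists, with the number of members in brackets (orange, past the threshold; black bar, list median; dashed line and grey band, median and quartiles of all 7436 tested genes). The mitosis list lies farthest to the right, with a median of 0.57, and the immediate early list farthest to the left, at -0.22.

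Genes of mitosis formed the list with the highest median among the 24, and none of them passed the threshold. Of 45 tested members 44 stood higher in Foxp3-cre, the median was 0.57, and in 39 (86.7%) all Foxp3-cre arrays lay above all CD4-cre arrays, against 10.8% of all tested genes. Cdca3, a trigger of mitotic entry, read 6.83, 6.88 and 6.82 in CD4-cre against 8.08, 7.37 and 7.58 in Foxp3-cre, a difference of 0.83 (SE 0.17, limma adjusted p = 0.0755). Kif11, the spindle kinesin, read 6.16, 6.15 and 6.14 against 7.45, 6.55 and 6.87, a difference of 0.81 (SE 0.21, adjusted p = 0.111). The CD4-cre arrays lay close together and the Foxp3-cre arrays were spread. Foxp3-cre replicate 1 was the highest of the 6 arrays for 44 of the 45 members, and the list's mean signal was 7.06, 7.12 and 7.03 in CD4-cre against 8.10, 7.30 and 7.51 in Foxp3-cre. Without Foxp3-cre replicate 1 the median was 0.33 and 9 of the 45 members passed, where 181 of all 7436 tested genes did (95 higher, 86 lower). Without Foxp3-cre replicate 2 the median was 0.73 and 0 members passed, where 9 of all tested genes did.

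The DNA replication and S phase list followed the same array. Of 41 tested members 38 stood higher, the median was 0.28, and 13 (31.7%) lay above without overlap, against 10.8% of all tested genes, but 0 passed in limma. Rrm2, the small subunit of ribonucleotide reductase, read 9.16, 9.22 and 9.11 in CD4-cre against 10.25, 9.55 and 9.57 in Foxp3-cre, at 0.63 (SE 0.18, adjusted p = 0.131). Cdc6, which loads the replicative helicase, stood at 0.65 (adjusted p = 0.163). Foxp3-cre replicate 1 was the highest of the 6 arrays for all 41 members, and without it the list's median was 0.09. The proteasome list, with a median of 0.04, and the respiratory chain list, with a median of 0.03, were also highest on that array, for 28 of 36 and 38 of 59 members.

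Promoters of the mitosis genes are shown because these genes stood higher together. Genes that peak in mitosis are known to carry a CCAAT box, bound by NF-Y, and a cell cycle homology region (CHR), bound by the DREAM and B-MYB complexes. In the 250 bases before the RefSeq start, on the assembly GRCm38.p6, CCAAT was searched on both strands and TTTGAA was taken as the CHR, also on both strands; these letters do not overlap. The 37 tested mitosis genes with a promoter in the table held the CHR in 15 cases (40.5%) and CCAAT in 28 (75.7%), and 14 (37.8%) held both. Among 6115 tested genes the shares were 12.5%, 40.5% and 5.63%. Among 36 S phase genes the CHR was found in 13.9% and CCAAT in 55.6%. A match is a description of these letters and does not show that a factor binds there. The promoters of the 2 mitosis genes with the largest differences are given 5′ to 3′ on the gene's strand, the plus strand for both, with CCAAT, its reverse complement and the reverse complement of the CHR in capitals. In Cdca3 (chr6:124829926-124830175) CCAAT occurs 104 bases before the start on the minus strand and 71 bases before it on the plus strand. In Kif11 (chr19:37376132-37376381) a CCAAT on the minus strand lies 45 bases and a CHR on the minus strand 19 bases before the start.
Cdca3: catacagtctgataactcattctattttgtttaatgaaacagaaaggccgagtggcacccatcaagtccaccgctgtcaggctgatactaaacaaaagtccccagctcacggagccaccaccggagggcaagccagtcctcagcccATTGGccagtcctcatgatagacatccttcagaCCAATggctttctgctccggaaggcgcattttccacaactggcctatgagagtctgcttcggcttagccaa
Kif11: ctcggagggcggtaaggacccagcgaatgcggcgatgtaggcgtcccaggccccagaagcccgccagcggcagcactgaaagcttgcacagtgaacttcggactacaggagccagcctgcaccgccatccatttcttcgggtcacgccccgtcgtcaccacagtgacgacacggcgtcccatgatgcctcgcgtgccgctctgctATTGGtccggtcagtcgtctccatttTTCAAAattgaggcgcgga

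Effector cytokine and cytotoxic genes leaned downward rather than upward in Foxp3-cre. Of 11 tested effector cytokines and lineage factors 9 had a difference below 0, the median was -0.17, and 0 passed in limma. Tbx21, the Th1 lineage factor T-bet, read 8.02, 7.80 and 8.24 in CD4-cre against 7.69, 7.56 and 7.52 in Foxp3-cre, at -0.43 (SE 0.11, adjusted p = 0.115). Il21, the cytokine of follicular helper T cells, stood at 0.67 with a CD4-cre mean under the filter, and this rests on Foxp3-cre replicate 1, at 6.15, since the other Foxp3-cre arrays read 4.90 and 5.01 against up to 4.90 in CD4-cre. Of 20 tested cytotoxic and NK receptor genes 14 had a difference below 0, and the median was -0.13. The 1 member that passed was Xcl1, which was lower, where 0.74% of all tested genes passed. Without CD4-cre replicate 3 the list's median was 0.09 and so changed sign. Of 16 tested conventional and naive T cell genes 0 passed in limma, with a median of -0.12. Igfbp4, an IGF-binding protein of naive T cells and of myeloid precursors, read 9.05, 8.99 and 8.86 against 10.41, 9.72 and 9.67, at 0.97 (SE 0.19, adjusted p = 0.0749).

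A few metabolic genes passed the threshold, in both directions. Of 22 tested glycolysis genes 3 passed, 1 higher and 2 lower, where 0.215% and 0.524% of all tested genes did, and the list's median was 0.06. Pdk1, the kinase that closes pyruvate dehydrogenase and so keeps pyruvate from the mitochondria, read 8.52, 8.44 and 8.54 in CD4-cre against 7.75, 7.86 and 7.76 in Foxp3-cre, a fall of 0.71 (SE 0.06, limma adjusted p = 0.0149). A further probe set of Pdk1 gave -0.35. Aldoc, an aldolase isoform, read 5.93, 5.95 and 5.99 against 5.55, 5.44 and 5.56, a fall of 0.44. Pfkfb3, which makes the activator of phosphofructokinase, read 5.90, 5.90 and 5.94 against 6.34, 6.22 and 6.27, a rise of 0.37. P4ha1, the collagen prolyl hydroxylase subunit, fell by 0.55. Cox18, which inserts a subunit of cytochrome oxidase, fell by 0.52, Mmaa, a chaperone of the vitamin B12 pathway, by 0.51, and the lipid enzyme Pcyt2 by 0.35. Cds2, of phospholipid synthesis, fell by 0.34, while its other probe sets above the filter read -0.33, -0.15 and 0.01.

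Most other metabolic and housekeeping lists stayed near the median of all genes, with 0 members past the threshold in limma. The medians were 0.03 for 59 respiratory chain and ATP synthase subunits, 0.05 for 22 fatty acid oxidation genes, -0.06 for 26 cholesterol and lipid synthesis genes, 0.05 for 31 heat shock proteins and chaperones and 0.00 for 30 cytosolic ribosomal proteins. Dnajb1, a cochaperone of HSP70, stood at -0.54 (adjusted p = 0.0558) and Dnaja1, of the same family, at -0.35 (adjusted p = 0.0799). Fabp5, a fatty acid carrier, stood at 0.63 (adjusted p = 0.144), and Elovl6, a fatty acid elongase, at -0.31 (adjusted p = 0.0572). Of 31 tested ATF4 stress and amino acid genes 0 passed, with a median of 0.05. Among them Asns, asparagine synthetase, read 7.46, 7.50 and 6.99 in CD4-cre against 7.39, 7.35 and 7.64 in Foxp3-cre, against 4.78, 4.55 and 4.43 in wild type, so the knockouts overlapped at a level that no wild type array reached. Ddit3, the stress factor CHOP, stood at -0.34 (adjusted p = 0.0738) and Psat1, of serine synthesis, at 0.53 (adjusted p = 0.113).

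Several further single genes rose. Litaf, an endosomal membrane protein, read 7.26, 7.16 and 7.61 in CD4-cre against 8.20, 8.14 and 8.49 in Foxp3-cre, a rise of 0.93 (SE 0.14, limma adjusted p = 0.0489). Ctsc, the protease that activates granule serine proteases, rose by 0.41, and Scpep1, a lysosomal carboxypeptidase, rose by 0.50. Plscr1, an interferon-inducible phospholipid scramblase, read 6.02, 6.19 and 6.08 against 6.70, 6.78 and 6.79, a rise of 0.66 (SE 0.06). Trim59, a ubiquitin ligase, rose by 0.67, Nav2, a cytoskeletal protein, by 0.61, Ptpn13, a cytosolic tyrosine phosphatase, by 0.48, Eri1, an exonuclease that trims histone mRNA ends and small RNAs, by 0.33, and Med14, a Mediator subunit, by 0.32. Of 34 tested interferon response genes 25 stood higher, with a median of 0.15 and 0 past the threshold in limma. Foxp3-cre replicate 1 was the highest array for 25 of them, and without it the median was 0.06. Ifitm3, an antiviral membrane protein that myeloid cells express strongly, read 7.32, 7.51 and 8.30 against 8.50, 8.64 and 9.43, at 1.15 (SE 0.33, adjusted p = 0.126). Rsad2, the antiviral enzyme viperin, stood at 0.82 (adjusted p = 0.131).

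Markers of cells that the separation could let through varied between arrays, and their groups mostly overlapped. All 20 tested genes of late neutrophils and their secondary granules stood higher in Foxp3-cre, with a median of 1.27, and 6 of them (30%) did not overlap, against 10.8% of all tested genes. Their mean signal was 7.79, 7.67 and 8.71 in CD4-cre against 8.63, 9.17 and 9.86 in Foxp3-cre, so CD4-cre replicate 3 lay above Foxp3-cre replicate 1. Cd177, a neutrophil surface protein, read 5.42, 5.15 and 6.72 against 6.63, 7.33 and 8.29, at 1.66 (SE 0.53, limma adjusted p = 0.147). All 14 tested monocyte and macrophage markers stood higher too, with a median of 1.18 and 2 of them without overlap (14.3%), a share near that of all tested genes. Their mean was 6.13, 6.08 and 7.11 against 6.82, 7.52 and 8.16. C1qb, a complement chain made by macrophages, read 4.48, 4.39 and 5.96 against 5.50, 6.76 and 7.53; it is 1 of 3 tested members of that list whose CD4-cre mean lay under the filter on low signals, so that they entered through the group where they read higher. With no filter the median over 21 measured members was 0.71. Of these 34 marker entries 0 passed in limma, and Lyz2 stands in both lists. Foxp3-cre replicate 3 was the highest of the 6 arrays for each of the 20 and each of the 14, and the medians without that array were 0.93 and 0.81. The monocyte markers Cd14, Itgam and Fcgr1 lay below the filter on low signals.

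B cell and antigen presentation genes followed another order of arrays. The mean of 9 tested B cell markers was 7.80, 7.79 and 7.82 in CD4-cre against 7.27, 8.51 and 8.83 in Foxp3-cre, so the Foxp3-cre arrays lay on both sides of CD4-cre. Their median difference was 0.32, 0 of them were free of overlap, and the median ran from -0.01 without Foxp3-cre replicate 3 to 0.91 without Foxp3-cre replicate 1. The B cell factors Pax5 and Ebf1 lay below the filter. The 9 tested MHC class II genes stood at a median of 0.27, and at 0.04 without Foxp3-cre replicate 3. The CD8 markers Cd8a and Cd8b1 stood at 0.27 and 0.31, with overlap. The CD4-cre mean of Cd8a lay under the filter on low signals, as did that of 1 tested gene each of the B cell, erythroid and platelet lists. These genes entered through the Foxp3-cre group, where they read higher. The NK and innate lymphoid list had a median of -0.15, which was 0.13 without CD4-cre replicate 3. The primary granule and precursor list of neutrophils stood at 0.58 over 11 tested genes, 6 of them higher without overlap (54.5%, against 10.8% of all tested genes). Single markers with large differences were Prg2, an eosinophil granule protein, at 1.41 (adjusted p = 0.0669), and Fscn1, an actin bundler of mature dendritic cells, at 1.90 (adjusted p = 0.0973). A further probe set of Fscn1 above the filter gave 0.28, with overlap. Prg2 is 1 of 4 tested mast cell, basophil and eosinophil genes, of which 2 stood higher and 2 lower. Gata2, of the same list, stood at -0.46 without overlap (limma adjusted p = 0.0764). The medians were 0.24 for dendritic cells (0.06 without Foxp3-cre replicate 3), 0.15 for mast cells, basophils and eosinophils (0.03 without Foxp3-cre replicate 1), 0.28 for erythroid cells (0.10 without Foxp3-cre replicate 3), -0.08 for plasma cells (0.07 without Foxp3-cre replicate 1), -0.11 for platelets, -0.28 for thymocytes, -0.05 for stroma and endothelium and -0.02 for sex-linked genes, and in none of these lists did a member pass in limma.

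**Figure D4:**
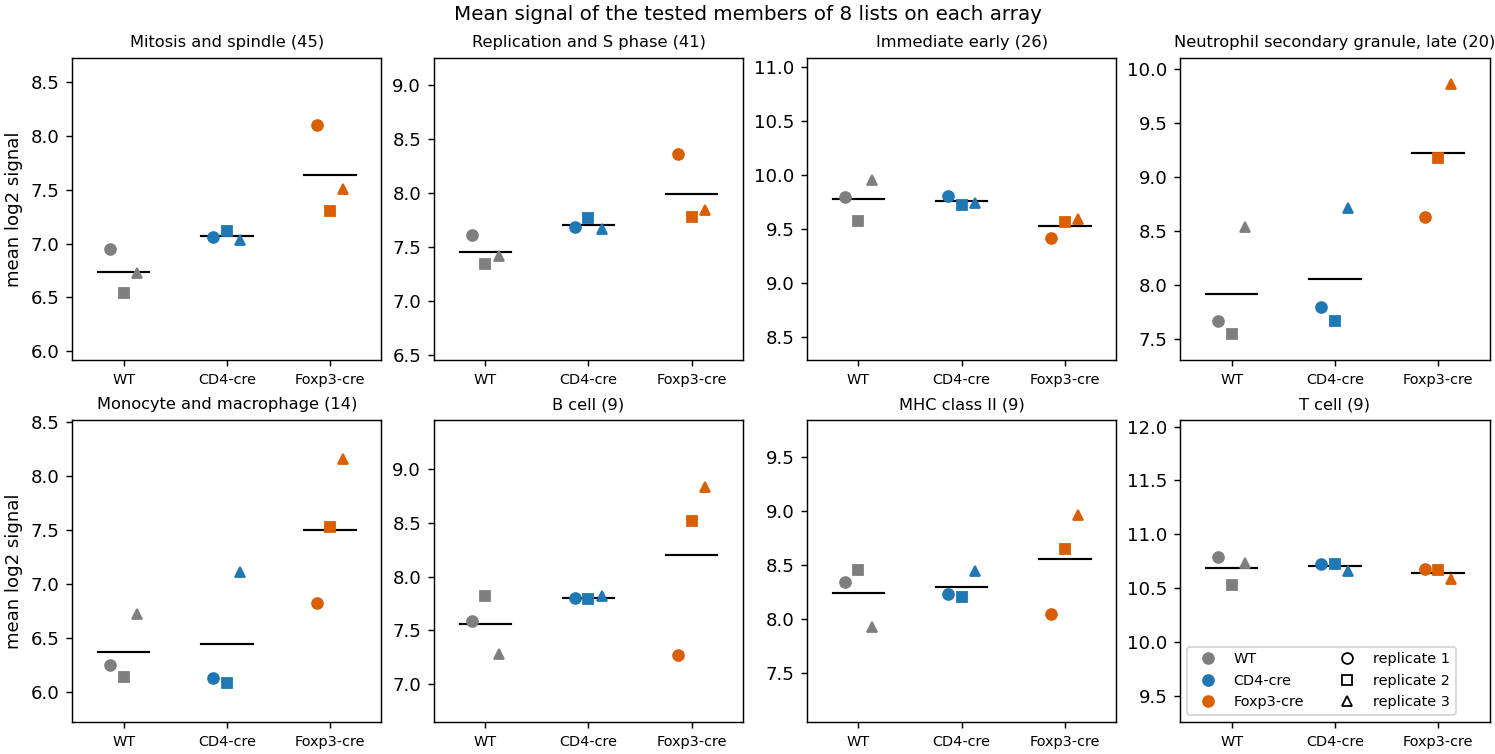
Mean log2 signal of the tested members of 8 lists on each array of wild type (WT), CD4-cre and Foxp3-cre, with the number of members in brackets, replicates 1, 2 and 3 as circle, square and triangle, and the group mean as a bar; each panel spans the same width of signal around its own level. Foxp3-cre replicate 1 is the highest for mitosis (8.10) and the lowest of its group for the neutrophil (8.63), monocyte (6.82) and B cell (7.27) lists, and the T cell markers are level.

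The marker lists and the genes past the threshold did not share an order of arrays throughout. For Il1r2 the Foxp3-cre arrays read 7.58, 6.94 and 7.36, with replicate 1 highest. The late neutrophil and the monocyte lists were lowest on replicate 1 of that group. For Itgb1 the 3 Foxp3-cre arrays lay within 8.46 to 8.57. For Litaf and Ctsc, as for the myeloid lists, replicate 3 was the highest array of each knockout group. Ctsc read 9.14, 9.12 and 9.23 in CD4-cre against 9.49, 9.57 and 9.66 in Foxp3-cre. These genes are examples, and how many of the genes that passed share either order was not counted. The part of other cells in the genes that passed was not tested.

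Wild type signals were set beside the 55 genes as description. The wild type mean lay between the means of the knockouts for 32 genes, beyond CD4-cre for 19 and beyond Foxp3-cre for 4. It was nearer to CD4-cre for 44 genes and nearer to Foxp3-cre for 11, and without wild type replicate 2 those numbers were 40 and 15. These positions were not counted over all tested genes, so whether they are particular to the 55 is not known. Dennd2d, a regulator of Rab GTPases, was among the exceptions: it read 7.22, 7.35 and 7.31 in CD4-cre, 7.67, 7.67 and 7.63 in Foxp3-cre and a mean of 7.91 in wild type, above both. Eri1 read 7.72, 7.70 and 7.72 in CD4-cre, 8.05, 8.07 and 8.01 in Foxp3-cre and 7.30, 6.58 and 7.17 in wild type, so CD4-cre lay between the other groups. Both were chosen after their values were seen.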

How the data were processed

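RNA of 9 samples was hybridised to Affymetrix expression arrays, 1 per sample. The values, as the authors deposited them, are log2 signals made with RMA per the submitters' processing notes, whose version, like the genome build, the sources used here do not give. RMA's normalization between arrays removes changes common to all genes. The table holds 22690 probe sets, 64 of them controls. Of the others 20380 carried 1 gene symbol, 691 several and 1555 none; 20351 matched the RefSeq table of GRCm38.p6 by gene ID. For each of 12393 genes the brightest probe set by mean over the 6 arrays was kept, and the 7436 genes at or above the 40th percentile, a log2 signal of 4.97, entered the test (limma 3.58.1 under R 4.3.3, lmFit with eBayes, two-sided, Benjamini-Hochberg over all tested genes, threshold 0.05, 4 residual and 2.71 prior degrees of freedom). Every adjusted p is limma's. The median SE was 0.068, and the number of arrays limits the precision. Samples are called independent in the series' design text, but no label ties them to separate animals, so p-values measure only the spread between these arrays, part of which may be technical. With 3 arrays a group the smallest p of an exact permutation test is 0.1, and none was run. No 2 arrays held identical values.

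The comparison, the 24 gene lists and the 16 marker lists were chosen with earlier results of these data known. Lists are described by counts and medians, without a set test. Named genes were drawn from several groups, and not every member of a group is named. The groups were the 15 largest rises and 15 largest falls past the threshold without overlap, and Sirt1, Foxp3, Il2ra, Cd4, Ctla4, Tnfrsf18 and Asns. Further groups were up to 4 members past the threshold of each list or the 2 farthest from 0. The last were tested neighbours of Foxp3, Sirt1 and Cd4, 5 on each side where there were so many. The other genes past the threshold that are named were picked after their values were seen. The fit was tested on simulated data. Alternatives were other sets of arrays, moderation, weights, a replicate block, probe set rules, filters and scalings.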

Additional observations from a re-analysis of the deposited data

How the results depend on the processing

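The fall of Foxp3 passed the threshold under every alternative run except the filter at the 60th percentile, where its mean left it untested. The number of other genes past the threshold depended on the setting. Against 55 genes (16 higher, 39 lower), the fit over all 9 arrays gave 1 (0 higher, 1 lower), trend and robust moderation 161 (43 and 118), array weights 280 (87 and 193), no filter 10 (4 and 6) and the filter at the 60th percentile 155 (41 and 114). The replicate block gave 119 (84 higher, 35 lower), of which 34 were among the 55 and 12 were among the 20 late neutrophil genes. It turned the share of higher genes from 29.1% to 70.6%. Same-numbered arrays deviated together with correlations of 0.204, -0.028 and 0.493. The arrays numbered 3 correlated best with each other, and those numbered 2 did not. For the late neutrophil and the monocyte lists replicate 3 was the highest array of every group, wild type included. Whether same-numbered arrays share a batch is not known and was not tested. Leaving out 1 array gave 1 to 181 genes, 0 to 95 higher and 1 to 86 lower. Counts stayed within 1.5 times of 55 with the mean of all probe sets (58), every probe set on its own (55, of which 40% higher), renewed quantile normalization (57), median centring (50) and, chosen after seeing the data, the fit over 8 arrays without wild type replicate 2 (71). The medians of the mitosis list (0.33 to 0.73) and of the immediate early list (-0.27 to -0.18) kept their sign under every setting run. Among named genes, the differences that changed sign lay near 0: with 1 array left out, Treml1 ran from -0.032 to 0.033 (-0.010 with centred arrays), Asns from -0.024 to 0.23, Ctla4 from -0.10 to 0.011 and Pecam1 from -0.042 to 0.020. The cause of these shifts was not tested.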
